A study of Rattus norvegicus with 12 samples.

Results

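Complement receptor 3 is an integrin of leukocytes that pairs an alpha chain, encoded by Itgam and known as CD11b, with a beta chain, encoded by Itgb2 and known as CD18. Its chains were described here through every array probe assigned to Itgam or Itgb2 by the study's list of differentially expressed genes (DEGs), of which only a part was used here. These were 3 of the 51255 probes on the array, with 2 probes for Itgam and 1 for Itgb2, so that the chains made up 2 of the 1099 genes that could be named. That part of the list named 1279 probes, all of them called by the study on the day 28 arrays. Any other probe carried no gene name here, so further probes of Itgam or Itgb2 may be among the unnamed ones. Protein values of the chains were not used here.

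Lung RNA of male Wistar rats was measured on 1-colour Agilent arrays, with 1 array per rat and 3 rats in each of 4 groups. Rats of the model group received 1 mL of silicon dioxide at 50 mg/mL into the trachea, and rats of the control group received 1 mL of saline. Both groups were sampled at day 14 and at day 28, by the time point and title of each sample. The labels also give the silica dose as 50 mg/kg, and their protocol text names day 28 for all 12 samples, while the study's methods describe no rats of day 14. According to those methods, the day 28 lungs were picked on their histology, so they may not stand for all rats given silica.

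The beta 2 integrins are a family in which the chain from Itgb2 is shared and the alpha chain differs. With the Itgam product it binds the complement fragment iC3b, ICAM proteins and fibrinogen, and it serves phagocytosis and adhesion. Itgam is typical of neutrophils, monocytes, macrophages and natural killer cells, whereas Itgb2 is found on nearly all leukocytes, and resting alveolar macrophages of rodents carry little of the Itgam product.

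The probe sequences are shown because the Itgam probes read different places of the gene's transcripts. Probe A_43_P15993 was designed on the reference mRNA and is printed whole. In its only forward frame without a stop codon, the 15 bases in capitals (positions 10 to 24 from its 5′ end) read as the motif beside the membrane that integrin alpha chains share, so this probe lies in the coding sequence. Probe A_44_P1161690 was designed on a predicted transcript variant of Itgam, and A_42_P591344 on the reference mRNA of Itgb2. Of these probes the last 30 of 60 bases are printed.
Itgam A_43_P15993: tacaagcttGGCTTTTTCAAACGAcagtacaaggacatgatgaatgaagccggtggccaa
Itgam A_44_P1161690: cacttttttactgttatgcatattgtcttt
Itgb2 A_42_P591344: actatatcccacatatatcagaatcatgtg
The GC content was 45.0% in A_43_P15993 and 35.0% in the other Itgam probe and in the Itgb2 probe. Itgam lies on chromosome 1 and Itgb2 on chromosome 20. In RefSeq's gene order for build GRCr8, Itgam is followed by Itgax and Itgad, which encode other alpha partners of the Itgb2 product, and neither carried a named probe.

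The promoter of Itgam, from RefSeq with build GRCr8, is shown because the transcription factor PU.1, encoded by Spi1, is known to act on this gene and Spi1 was measured on the arrays. The 154 bases at chr1:192089342-192089495 on the plus strand lie before the gene's start, and capitals mark GAGGAA, the core that PU.1 recognises.
Itgam promoter: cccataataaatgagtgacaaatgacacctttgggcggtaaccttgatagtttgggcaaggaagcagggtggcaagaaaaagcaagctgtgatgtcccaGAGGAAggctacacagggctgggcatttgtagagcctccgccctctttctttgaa
The match ends 49 bases before the start of the gene. Searched on both strands, the whole window of 300 bases held 2 matches, 1 on each strand. The same letters were found in 27.6% of all 33469 promoters of this length, so the match is only a description. Binding was not measured. For Itgb2 and Spi1 no promoter sequence was used here.

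On each of the 12 arrays all 3 probes gave a signal well above background, and none was saturated. The share of probes well above background was 60.5 to 61.1% on the model arrays of day 28 and 63.3 to 69.5% on the control arrays of that day. At day 14 it was 64.6 to 67.8% in the model group and 65.9 to 69.2% in the control group. The 3 model arrays of day 28 and control array 1 of day 28 were on slide 1, and the other 8 arrays, among them all those of day 14, were on slide 2. Values below are quantile-normalized log2 signals, and levels are compared between groups within a probe, not between probes.

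Itgam was upregulated in the model group at both days. For probe A_44_P1161690, the log2 signals of the control rats at day 14 were 7.16, 6.46 and 6.58, and those of the model rats were 9.56, 9.36 and 9.61. At day 28 the control rats had 5.68, 6.53 and 6.50 and the model rats 10.26, 9.76 and 9.35. Every model array lay above every control array, and the lowest model value exceeded the highest control value of the same day by 2.19 at day 14 and 2.83 at day 28. In means this was 6.74 ± 0.37 (SD, n = 3) against 9.51 ± 0.13 (SD, n = 3) at day 14, and 6.23 ± 0.48 (SD, n = 3) against 9.79 ± 0.45 (SD, n = 3) at day 28.

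The coding probe A_43_P15993 gave the same direction with a wider spread. At day 14 its log2 signals were 7.44, 6.38 and 5.99 in the control rats and 9.40, 10.31 and 10.41 in the model rats. At day 28 they were 5.22, 5.86 and 6.99 in the control rats and 11.31, 10.43 and 9.21 in the model rats. The groups again did not overlap, with gaps of 1.96 and 2.22. Its SD was 0.75 and 0.56 (n = 3 each) in the control and model group of day 14 and 0.90 and 1.05 (n = 3 each) in those of day 28.

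Itgb2 rose less, and its rats were more alike at day 28 than at day 14. The control rats had log2 signals of 8.58, 7.92 and 8.53 at day 14 and the model rats 9.67, 9.22 and 9.10. At day 28 the control values were 8.10, 8.19 and 8.18 and the model values 10.03, 9.89 and 10.02. The gap between the groups was 0.51 at day 14 and 1.70 at day 28, and they overlapped at neither day. Its group means at day 28 were 8.15 ± 0.049 (SD, n = 3) and 9.98 ± 0.083 (SD, n = 3), against 8.35 ± 0.37 (SD, n = 3) and 9.33 ± 0.30 (SD, n = 3) at day 14.

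**Figure D1:**
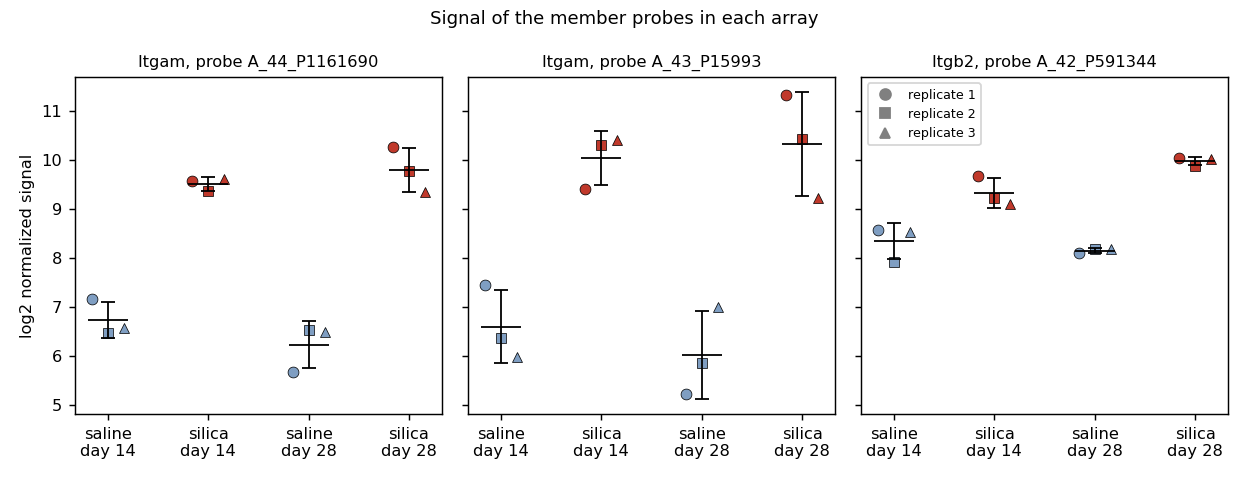
Normalized log2 signal of the Itgam probes and the Itgb2 probe on each of the 12 arrays, by group, with points for rats and bars for the mean and SD of 3 rats. The model points lie above the control points for each probe at each day, with the narrowest gap, 0.51, for Itgb2 at day 14.

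For all 3 probes the groups did not overlap at either day, with the model group higher. Over the 34097 probes tested, 15.3% were non-overlapping and higher in the model group at day 14, and 22.6% at day 28. In bulk lung tissue, more cells with an mRNA and more of that mRNA per cell cannot be told apart, and this holds for every change given here.

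The question at day 14 was whether the chains that were listed from the day 28 arrays also differed in other rats. In the limma fit (Benjamini-Hochberg adjustment over 34097 probes), probe A_44_P1161690 of Itgam was 6.84-fold higher in the model group, a log2 change of 2.77 (standard error 0.28, 95% confidence interval 2.15 to 3.40, adjusted p = 3.27e-04). The coding probe of Itgam was 10.8-fold higher, a log2 change of 3.44 (standard error 0.59, 95% confidence interval 2.13 to 4.74, adjusted p = 0.0048). Itgb2 was 1.98-fold higher, a log2 change of 0.98 (standard error 0.19, 95% confidence interval 0.56 to 1.40, adjusted p = 0.0083). All 3 probes passed an adjusted p of 0.05 in the upward direction, as did 7.07% of the probes tested. With the further demand of a 2-fold change, 2 of the 3 were called, both of Itgam. Of all probes, 5.65% were called, with 2.87% higher and 2.78% lower. Of the 1098 named genes tested, listed from the day 28 arrays as the chains were, 26.3% were called higher at day 14. Itgb2 missed that demand by little, and it passed when control rat 1, control rat 3, model rat 2 or model rat 3 of day 14 was left out, with log2 changes of 1.10, 1.08, 1.04 and 1.10 and adjusted p between 0.012 and 0.021 in limma.

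Among the 34097 changes at day 14, ordered from the highest, the Itgam probes stood at rank 37 (A_43_P15993) and rank 87 (A_44_P1161690) and the Itgb2 probe at rank 1227. The median change over all probes was -0.01, and the 99th percentile was 1.67, which both Itgam probes exceeded and Itgb2 did not. The methods' own probe-by-probe test, which borrows no spread from other probes, called 1899 probes at day 14 at an unadjusted p of 0.05 and a 2-fold change, the thresholds the methods state for DEGs, and both Itgam probes were among them. After adjustment it called 1 probe and no member (adjusted p = 0.073 for A_44_P1161690 and 0.093 for A_43_P15993).

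At day 28, the contrast from which the study had listed them, all 3 probes were called higher. Of all probes, 9.74% were called, with 4.75% higher and 5% lower. These values describe size and are no independent evidence. The log2 change was 3.56 for A_44_P1161690 of Itgam (standard error 0.28, adjusted p = 3.86e-05 in limma), an 11.8-fold difference. For A_43_P15993 it was 4.30 (standard error 0.59, adjusted p = 7.10e-04 in limma), a 19.6-fold difference. For Itgb2 it was 1.83 (standard error 0.19, adjusted p = 1.37e-04 in limma), a 3.55-fold difference.

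Slide 1 held all model rats and 1 control rat of day 28, and the values of day 28 were also taken within it. Against that control rat alone the model mean was higher by 4.11 for A_44_P1161690, 5.10 for A_43_P15993 and 1.88 for Itgb2. Against the other control rats, which were on slide 2, the differences were 3.28, 3.89 and 1.80. The Itgam difference was thus larger within the slide than across the slides, and that of Itgb2 moved little. Since the within-slide value rests on 1 control rat, rat and slide cannot be told apart in it. At day 14 all arrays shared a slide.

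**Figure D2:**
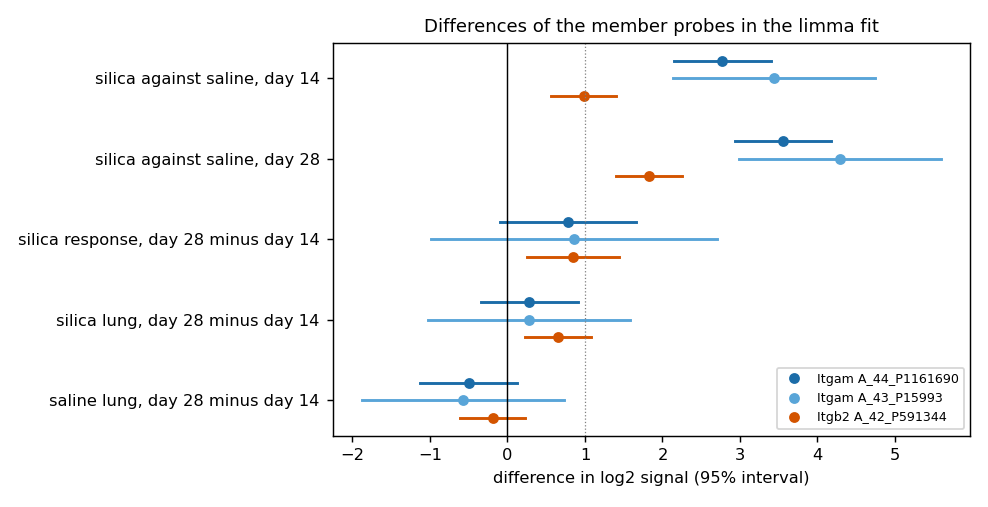
Log2 changes of the 3 probes in each comparison of the limma fit, with points for the estimate and bars for the 95% confidence interval; the dotted line at 1 marks a 2-fold difference. The silica changes of both days lie above 0 for all probes, and the intervals of the Itgam probes for the difference between days include 0.

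The log2 change of Itgam was set against that of Itgb2, its partner in the receptor. The log2 change of Itgam minus that of Itgb2 was 1.79 at day 14 and 1.73 at day 28 with probe A_44_P1161690, and 2.45 and 2.47 with A_43_P15993. Computed on each array from A_44_P1161690, Itgam minus Itgb2 was -1.42, -1.46 and -1.95 in the control rats of day 14 and -0.11, 0.14 and 0.51 in the model rats. At day 28 it was -2.42, -1.66 and -1.68 in the control rats and 0.22, -0.12 and -0.67 in the model rats. The difference was higher in every model rat than in every control rat of the same day. This also held with A_43_P15993, whose lowest model and highest control values were -0.27 and -1.14 at day 14 and -0.81 and -1.18 at day 28. Each chain was read by its own probe, and how the probes differ in response was not tested.

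An exact two-sided permutation test of the group labels gave p = 0.10 at either day with either Itgam probe, the smallest value that 20 arrangements allow, so this design could not bring the difference between the chains past 0.05 within a day. The comparison was made with the changes of both chains already known.

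Whether the response differed between the days was tested in the same fit. The probes had been listed from the day 28 arrays, which enter this difference, so an excess at day 28 is no independent evidence. The change of day 28 exceeded that of day 14 by 0.78 for A_44_P1161690 (95% confidence interval -0.10 to 1.66, adjusted p = 0.55 in limma) and by 0.86 for A_43_P15993 (-0.98 to 2.70, adjusted p = 0.77). For Itgb2 the excess was 0.84 (0.25 to 1.44), with an unadjusted p of 0.0098 and an adjusted p of 0.39 in limma. With 1 array left out at a time, the excess ran from 0.51 to 1.00, 0.36 to 1.41 and 0.73 to 1.06 for these probes. With slide as a block it was 1.34, 1.67 and 0.90, where the slide term rests on 1 control rat of day 28. No member passed in these fits. None of the 3 passed, nor did any of the 34097 probes (0%), of which 3387 had an unadjusted p under 0.05.

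Within the model group, Itgb2 was 0.65 higher at day 28 than at day 14 (standard error 0.19, adjusted p = 0.052 in limma), and its lowest day 28 value, 9.89, lay above its highest day 14 value, 9.67. The Itgam probes were each 0.28 higher (standard errors 0.28 and 0.59, adjusted p = 0.55 and 0.79), and their day 14 and day 28 values overlapped. Leaving out 1 array moved them to between 0.05 and 0.50 for A_44_P1161690 and between -0.21 and 0.84 for A_43_P15993, the latter thus turning in sign, and slide as a block gave 1.11 and 1.49 (adjusted p = 0.30 and 0.52). None of the 3 was called, while 2.84% of all probes were. The model arrays of the 2 days were on different slides, so day and slide cannot be told apart in this comparison. The slide block does not change this, since its slide term rests on 1 control rat of day 28. It also uses the day 28 arrays from which the probes had been listed. In the control group the day 28 means were lower by -0.50 and -0.58 for Itgam and -0.19 for Itgb2, with adjusted p of 0.58, 0.77 and 0.76 in limma, and 0% of the probes were called (3278 had an unadjusted p under 0.05).

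**Figure D3:**
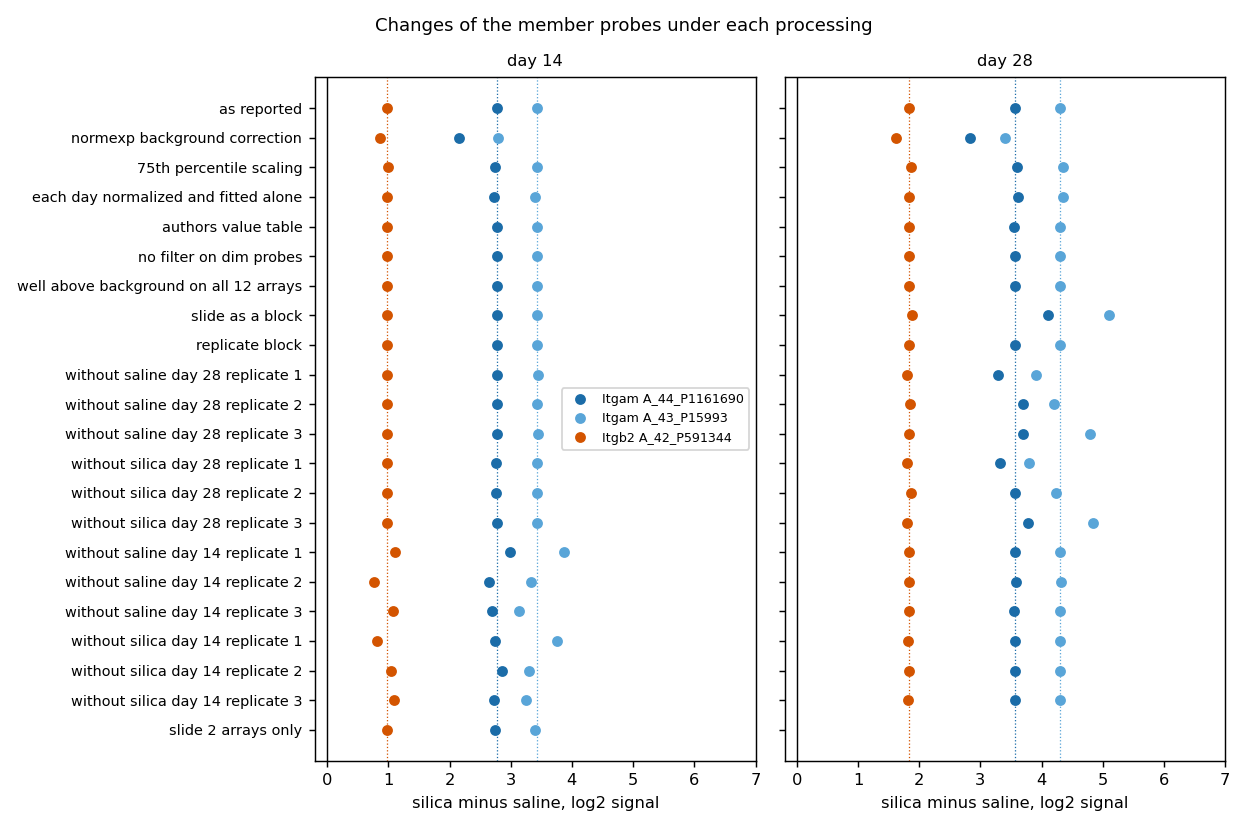
Silica minus saline log2 change of the 3 probes at day 14 (left) and day 28 (right) under each processing alternative, with a dotted line at the value as reported. Itgb2 stays left of both Itgam probes in every setting shown. The Itgam points move most with normexp background correction, to 2.16 and 2.79 at day 14 and to 2.82 and 3.40 at day 28. With slide as a block they move to 4.11 and 5.10 at day 28, values that rest on control rat 1 of day 28, the only control on slide 1.

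Genes with the most similar profile were sought among the other 1098 named genes by the root mean square (rms) difference of log2 signal over the 12 arrays, after each profile was centred on its own mean. All these genes had been listed for a change at day 28, so likeness is a description. Nearest to Itgb2 was Spi1, which encodes PU.1, with an rms of 0.12, where the median over all named genes was 1.09. Also near it were Arhgap22, which encodes a GTPase-activating protein, with 0.15, the necroptosis kinase gene Ripk3 with 0.16, and Fcer1g, the common gamma chain of Fc receptors, with 0.17. Their log2 changes ran from 0.71 (Fcer1g) to 1.22 (Arhgap22) at day 14 and from 1.53 (Ripk3) to 1.92 (Arhgap22) at day 28.

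Nearest to probe A_44_P1161690 of Itgam were Fabp5, a fatty acid binding protein gene, with an rms of 0.23, and the galectin 3 gene Lgals3 with 0.31, where the median was 1.31. Hs6st2, which encodes a heparan sulfate sulfotransferase, followed with 0.36, then the lysosomal macrophage gene Cd68 with 0.39 and the cytoskeletal linker gene Gas2l3 with 0.40. Nearest to A_43_P15993 were Hs6st2 (rms 0.72), Fabp5 (0.73), the sugar phosphate transporter gene Slc37a2 (0.75), Gpnmb (0.76) and Gas2l3 (0.80), against a median of 1.77. Hs6st2, Fabp5 and Gas2l3 thus stood among the nearest of both Itgam probes. The Itgam probes differed from each other by an rms of 0.59, and Itgb2 from them by 0.95 and 1.44. Of the named neighbours with a promoter sequence, Cd68 and Gpnmb held GAGGAA, and Arhgap22, Gas2l3, Hs6st2, Ripk3 and Slc37a2 did not. Over all promoters 27.6% held it, so this is a description only.

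**Figure D4:**
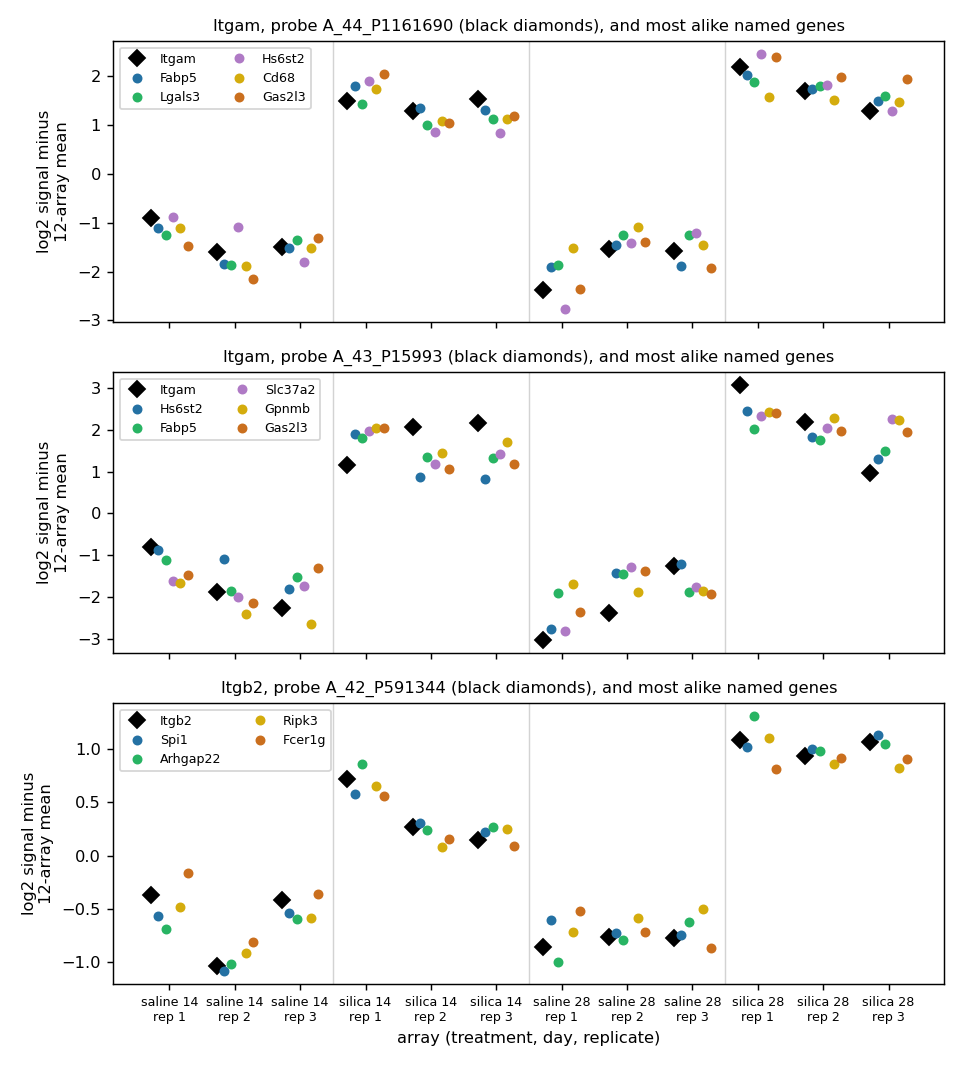
Log2 signal minus the mean over 12 arrays for each member probe (black diamonds) and the most alike named genes (coloured points), by array. Spi1 and the other neighbours of Itgb2 keep within a narrow band around it, with rms differences of 0.12 to 0.17, and the neighbours of A_43_P15993 scatter more, with 0.72 to 0.80.

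Other genes of the receptor's pathway could be read only where the list named them, and every one had been selected at day 28, so counts for that day say nothing independent. Of the 1098 named genes tested, 26.3% were called higher and 20.7% lower at day 14, against 2.87% and 2.78% of all probes, and the counts at day 14 below stand beside those shares. Of the 5 beta 2 integrin chains, Itgam and Itgb2 were named. Fermt3, the kindlin of blood cells that activates beta 2 integrins, was the only one of 13 activation adaptors with a name. It was higher by 1.04 at day 14 (standard error 0.17, adjusted p = 0.0034 in limma) and by 2.09 at day 28, sizes close to those of Itgb2.

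Among 13 ligand genes of the receptor, 3 were named, with 0 called higher and 1 called lower at day 14. Icam2, an adhesion ligand of endothelium and leukocytes, fell by 1.32 at day 14 (adjusted p = 0.0072 in limma) and by 1.15 at day 28. Fgg, the fibrinogen gamma chain gene, had a log2 change of 0.98 at day 14 (adjusted p = 0.052) and rose by 1.11 at day 28. F10, the coagulation factor X gene, was not well above background on any control array, and was at least 3.54-fold higher in the model group at day 28. F10 entered the fit only through that group, so its call there is no independent support. At day 14, 1 of 3 model arrays measured it.

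Of 20 signalling genes that act below the receptor, 7 were named. None was called at day 14 with the 2-fold demand, and 6 passed the adjusted p in the upward direction, as did 7.07% of all probes. Most of those probes had not been listed for a change. The same share among named genes was not computed, so the 6 cannot be read as a result about the pathway. All 7 were called higher at day 28, the day at which they had been selected. Their median log2 change was 0.79 at day 14 and 1.20 at day 28. The median of all probes was -0.01 and -0.02, but those had not been selected for a change, so the medians are not alike in kind. The tyrosine kinase gene Syk rose by 0.84 (adjusted p = 0.0077 in limma) at day 14 and 1.15 at day 28. The exchange factor gene Vav1 rose by 0.81 and 1.40, the actin regulator gene Was by 0.81 and 1.01, and the adaptor gene Card9 by 0.79 and 1.21. Fcer1g rose by 0.71 and 1.58 and the adaptor gene Lcp2 by 0.67 and 1.19. Rac2, which did not pass at day 14, had log2 changes of 0.58 (adjusted p = 0.075 in limma) and 1.20. For none of the 7 was a difference in response between the days called, with adjusted p between 0.36 and 0.86 in limma.

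The complement list had 11 of 42 genes named, with 8 called higher and 1 lower at day 14, and 10 higher and 1 lower at day 28. Vsig4, the gene of another macrophage receptor for C3 fragments, was not well above background on any control array of day 14, and was at least 5.46-fold higher in the model group. Vsig4 entered the fit only through the model groups, so its calls are no independent support. C4bpa, Cfi, C1qa, C1s and C2 rose by 2.79, 2.40, 1.68, 1.57 and 1.48 at day 14. Of these, Cfi encodes the protease that cuts C3b to iC3b, and C1qa, C1s and C2 belong to the classical pathway. Vtn, which encodes vitronectin and was chosen after its values were seen, was the gene called lower, with log2 changes of -1.35 and -1.36. Among 16 other phagocytic receptors, 4 were named, with 3 called higher at day 14 and 4 at day 28. Cd14 rose by 1.86 and 3.24 and the scavenger receptor gene Scarb1 by 1.25 and 1.38. Fcgr1a, the high-affinity IgG receptor gene, had a log2 change of 0.83 at day 14 (adjusted p = 0.067) and rose by 1.77 at day 28. Msr1, another scavenger receptor gene, was well above background on no control array of day 28, where it was at least 7.78-fold higher in the model group. Msr1 likewise entered the fit only through the model groups. At day 14, when 1 of 3 control arrays measured it, its log2 change was 3.06.

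Of 21 other integrin chains, 4 were named. Itgb8, whose product binds latent TGF-beta, rose by 2.15 at day 14 and 1.99 at day 28. Itga9 was called lower at both days (-1.16 and -1.71). Itga1 and Itga8 had log2 changes of -0.89 and -0.81 at day 14, which passed the adjusted p and missed the 2-fold demand, and fell by 1.09 and 1.26 at day 28. The upward change was thus not shared by all integrin genes that could be read.

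Most of the named markers of monocytes and macrophages rose with the chains. Of 15 markers of monocytes and macrophages, 7 were named, 6 were called higher at day 14 and 7 at day 28. Their mean log2 signal at day 14 lay between 7.70 and 8.24 in control rats and between 10.32 and 11.09 in model rats. At day 28 it lay between 8.01 and 8.23 in control rats and between 11.004 and 11.19 in model rats. The groups overlapped at neither day. These markers carried names only because the study had called them on the day 28 arrays. Their count and separation at day 28 are therefore no independent evidence. At day 14 the mean of the 7 named signalling genes also separated, at 7.61 to 7.95 in control and 8.39 to 8.88 in model rats. So did that of the complement list, at 8.07 to 8.46 and 9.42 to 9.89. The means of the ligand, other integrin, T cell and dendritic cell lists overlapped. Separation was thus not particular to the macrophage markers, and how often other sets of listed genes would separate was not tested. At day 14 the fitted log2 change of Fabp4, a gene of alveolar macrophages in this organ, was 5.33, with 1 of 3 control arrays well above background. Fabp4 entered the fit only through the model groups. Trem2 rose by 4.25, Gpnmb by 3.97, Cd68 by 2.82, Aif1 by 1.26 and Spi1 by 1.10 at that day. The remaining marker, Ccr2, had a log2 change of 0.48 (adjusted p = 0.34 in limma), and its groups overlapped at day 14. At day 28 it rose by 1.28. The change of Itgam lay between those of Gpnmb and Aif1 at day 14, and that of Itgb2 was close to that of Spi1.

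Of the other cell types, 6 of 10 endothelial markers were named, and 5 were called lower at day 14 and 6 at day 28, led by Plvap, Ace and Tek (-2.06, -1.46 and -1.45 at day 14). Of the T cell, dendritic cell and epithelial markers, 1 of 9, 2 of 6 and 1 of 13 were named, and none was called at day 14. At day 28 the T cell gene Cd8a was called higher (1.51), and Zbtb46 of dendritic cells (-1.05) and Aqp5 of epithelium (-1.29) lower. Of 13 neutrophil, 8 natural killer cell and 7 B cell markers none carried a name in the part of the list used here, so that neutrophils and natural killer cells, which also carry the receptor, were not measured here by their markers. The part of changing cell shares in the rise of Itgam and Itgb2 was not tested.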

How the data were processed

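Lung mRNA was profiled on 12 Agilent 1-colour (Cy3) arrays, 1 per rat. The authors extracted spot intensity with Agilent Feature Extraction 10.7.1.1, per the submitters' processing notes, and deposited scanner files plus a table of log2 values that were quantile-normalized. That log2 table matched the normalization here (r = 1 on each array). Each array had 62972 spots, of which 1439 were controls, and the number of arrays limits the precision.

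Processed signals were taken as log2, spots of a probe averaged (controls and outliers left out) and all arrays quantile-normalized together. The 34097 probes tested were those that, in 1 or more of the 4 groups, exceeded background clearly on every array. Group means were fitted in limma 3.58.1 (R 4.3.3) with 8 residual degrees of freedom. Calls required an adjusted p (Benjamini-Hochberg) no higher than 0.05 and a 2-fold or larger change, and for the difference between days the adjusted p alone. The limma step was tested on simulated data. Its p-values rest on the spread between rats within groups, pooled over the 4 groups and moderated by the spread of all probes. The control arrays of day 28 were on 2 slides, so their spread includes any slide difference.

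Gene names came from the part of the study's DEG list used here, and 1050 of its accessions were found in RefSeq. A translated match of further probes was planned and was not run, so the lists hold DEGs only. Named were all member probes, at most 6 genes per list with the largest day 14 change, and the 5 nearest profiles per probe. Vtn, Rac2 and Ccr2 were named beyond this rule, after their values were seen. The plot of the lists shows all their named genes. A gene that these rules would include is not reported here. Where 1 probe stood for a gene, it was the brightest. Members and lists were chosen with earlier results of these data known. "At least" folds set the bright mean against the lowest signal well above background. Alternatives were the background correction, scaling, fit per day, the deposited table, the filter, slide and replicate blocks, the t-test of each probe alone and each array left out. Scripts ran in Python 3.11.15.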

Additional observations from a re-analysis of the deposited data

How the results depend on the processing

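All silica changes of the 3 probes kept their sign in every alternative, and calls at day 28 held throughout. Apart from leaving out arrays, the t-test of each probe alone with adjustment ended the day 14 calls of Itgam (log2 changes 2.77 and 3.44, adjusted p = 0.073 and 0.093). The number of probes called at day 14 fell from 1926 to 734 with normexp and to 1 with that t-test, and at day 28 from 3322 to 1314 and 2096. For the difference between days it was 0, and 1 with normexp, 1 with no filter, 1 with only probes above background on all 12 arrays, and 4 with slide as a block. Between days in the model group it fell from 969 to 287 with normexp, 587 with that filter and 4 with slide as a block, and in the control group it was 0 and with slide as a block 2. The model arrays of day 28 and day 14 were on different slides, so with slide as a block their comparison rests on 1 control rat of day 28. The cause of the other shifts was not tested.

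With each array left out, the counts ran from 1125 to 2591 at day 14 (1125 without model rat 1 of day 14), 2544 to 3817 at day 28, 0 to 265 for the difference between days (265 without control rat 1 of day 28, 21 without model rat 1 of day 14), 199 to 1206 for model days (199 without model rat 3 of day 14, 300 and 471 without model rats 3 and 2 of day 28) and 0 to 4 for control days. The changes ran from 2.65 to 2.99, 3.13 to 3.86 and 0.77 to 1.10 at day 14 for A_44_P1161690, A_43_P15993 and Itgb2, and from 3.28 to 3.77, 3.79 to 4.84 and 1.80 to 1.87 at day 28. On the slide 2 arrays alone, an alternative chosen after seeing the data, no day 14 call of a member changed.

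Replicate numbers did not pair the rats: same-numbered samples correlated between -0.24 and 0.24 in their deviations. With a replicate block, 1950 probes were called at day 14 and 3304 at day 28, and no member's call changed.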
